A study of Drosophila melanogaster with 8 samples.

Results

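Dense clusters of SIN3 binding sites in Drosophila S2 cells were examined in the filtered peak lists of the 2 SIN3 isoforms, SIN3 187HA and SIN3 220HA. Peaks of both lists that shared at least 1 bp were merged into regions, and consecutive regions on a chromosome were chained as long as the gap between them was at most 4000 bp. Chains of 5 or more regions were kept as clusters. This gave 176 clusters holding 1044 of the 6219 regions, or 16.8%. The clusters were therefore selected on the measured positions of peaks that had passed the authors' filters, and their number, length and spacing are given as a description, with no test.

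SIN3 is the scaffold of a histone deacetylase complex that is recruited to DNA by other factors and is known mainly as a corepressor of transcription. In Drosophila it is made as several isoforms with unlike C-termini that are expressed at different stages and in different tissues, and SIN3 220 is the main isoform of dividing cultured cells such as S2. The deacetylase removes acetyl groups from histone tails, a modification most abundant around the starts of active genes.

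The data were chromatin immunoprecipitation and sequencing (ChIP-seq) of stable S2 lines, an embryonic cell line, carrying either HA-tagged SIN3 187 or HA-tagged SIN3 220. Each line had 2 immunoprecipitates with an anti-HA antibody and 2 input samples, 8 samples in all. The SIN3 187HA transgene was driven by the copper-inducible metallothionein promoter and was induced with copper sulphate, which in the study's own account strongly lowered the endogenous SIN3 220, whereas the SIN3 220HA line was not induced, so that isoform, copper and the loss of the other isoform changed together. No precipitate from cells without the tag was among these samples. The paper reports that a sizeable part of its SIN3 peaks overlapped phantom peaks, described as sites occupied by any transcription factor. It allows that some of the binding was fortuitous, though it assigned some of these peaks to genes whose expression changed. Phantom peaks were not set apart here. The replicates were joined before peak calling, so no value has a spread between replicates, no p is given, and the 95% intervals (exact binomial for shares and ratios, order statistics for medians) cover counting error within a list alone. Neighbouring regions share libraries and local background and are not independent. The lists hold positions and enrichment only, so the identity of the cells could not be read from marker genes.

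The SIN3 187HA list held 4903 filtered peaks and the SIN3 220HA list 5810. The clusters took 816 SIN3 187HA peaks (16.6%) and 1001 SIN3 220HA peaks (17.2%), while their spans added up to 2593 kb, or 2.11% of the length between the first and last region of the chromosomes. Pileup, the number of overlapping fragments at the summit, was recovered for the filtered peaks, with a median of 125 reads in the SIN3 187HA list and 189 in the SIN3 220HA list. The SIN3 220HA list thus rested on higher pileups. Its background was also higher, at a median of 28.2 against 18.8 reads over the unfiltered peaks. Whether the absence of a peak carries the same weight in the 2 lists was not tested.

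Most clusters were short rows. There were 86 clusters of 5 regions, 54 of 6, 17 of 7, 11 of 8 and 4 of 9, and 1 each of 10, 11, 12 and 14 regions. Their span had a median of 14340 bp and ranged from 5259 to 35319 bp, and regions covered a median of 45.9% of the span (20.8% to 90.9%). Summits of neighbouring regions lay a median of 2574 bp apart (quartiles 1657 and 3808 bp). The 868 gaps inside clusters had a median of 1384 bp (quartiles 564 and 2522 bp), beside 1466 bp for the 1966 gaps of at most 4000 bp in chains of 2 to 4 regions and 4766 bp for all neighbouring regions. The most frequent gap was the shortest, since 23.2% of the gaps in clusters were under 500 bp and 7.26% were between 3500 and 4000 bp. In chains of 2 to 4 regions these shares were much the same, at 21.8% and 7.73%.

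At the edge of the rule, the widest gap inside a cluster was 3993 bp and the narrowest gap beside one was 4002 bp. Of the gaps in clusters 10 were over 3900 bp, 6 of the gaps beside clusters were at most 4100 bp, and 36 clusters had another region within 5000 bp of an end. Just under the smallest cluster size there were 167 chains of 4 regions, about as many as all the clusters together, so the clusters were the upper end of a continuous range of chain sizes.

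Random placement was calculated by formula, with the same regions spread uniformly over the free length of each chromosome. Under it 19.99% of neighbouring regions would lie within 4000 bp of each other, whereas 45.7% did. The formula gives 8.26 clusters with 43.5 regions, against the 176 clusters with 1044 regions in the data, 21.3 times as many clusters. No size above 6 regions would be expected as often as once. Uniform placement is a loose background for sites that lie mostly at genes, so a second formula kept the observed share of short gaps and let them fall in any order along the chromosomes. It gives 147 clusters with 857 regions, much closer to the data. As a description of the same spacing, after a gap of at most 4000 bp the next gap was also that short in 48.7% of 2833 cases, and after a longer gap in 43.2% of 3365.

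**Figure D1:**
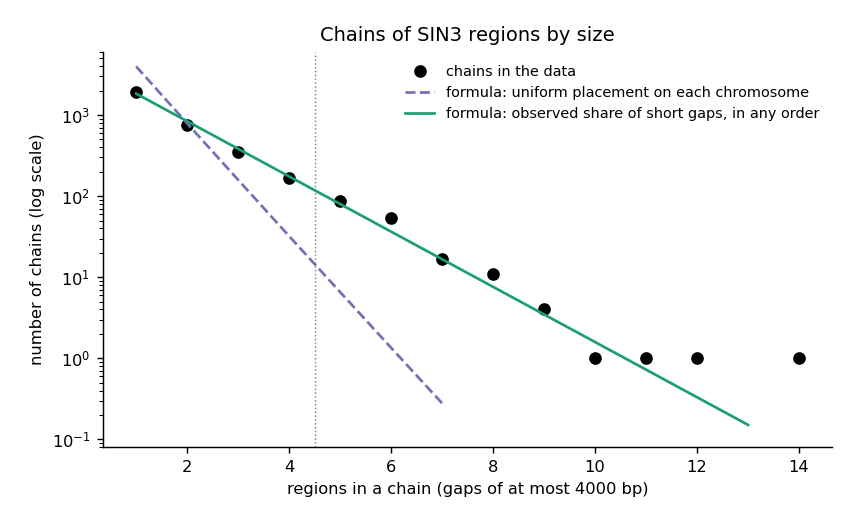
Number of chains (log scale) against the number of regions in the chain. Points are the data, the dashed line is uniform placement and the solid line is the observed share of short gaps in any order; the dotted vertical line separates clusters of 5 or more regions. The points lie above the dashed line from 3 regions on, where 354 chains stand beside 159 expected. They lie closer to the solid line, though 54 chains of 6 regions stand beside 36.5 and 1 chain of 14 beside 0.07. Lines are drawn from 0.1 expected chains on.

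The 2 isoforms met about as often in clusters as in other regions. Both isoforms were held by 706 of the 1044 cluster regions, or 67.6% (64.7% to 70.5%), beside 67.0% of all regions and 66.9% of the regions outside clusters (65.6% to 68.1%). SIN3 220HA alone was held by 264 cluster regions, 25.3% (22.7% to 28.0%), beside 24.4% of all regions. SIN3 187HA alone was held by 74, or 7.09% (5.61% to 8.82%), beside 8.62% of all regions. The share with SIN3 187HA alone was 10.4% in regions with no neighbour within 4000 bp, 8.72% in chains of 2, 7.51% in chains of 3 to 4 and 6.63% in clusters of 5 to 6 regions, where its interval (4.96% to 8.65%) lay below that of the lone regions (9.03% to 11.8%), and it was 8.28% in clusters of 7 or more, where 290 regions leave a wide interval (5.37% to 12.1%). In the same largest clusters 63.4% of regions held both isoforms (57.6% to 69.0%), beside 69.2% in clusters of 5 to 6 (65.8% to 72.5%).

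**Figure D2:**
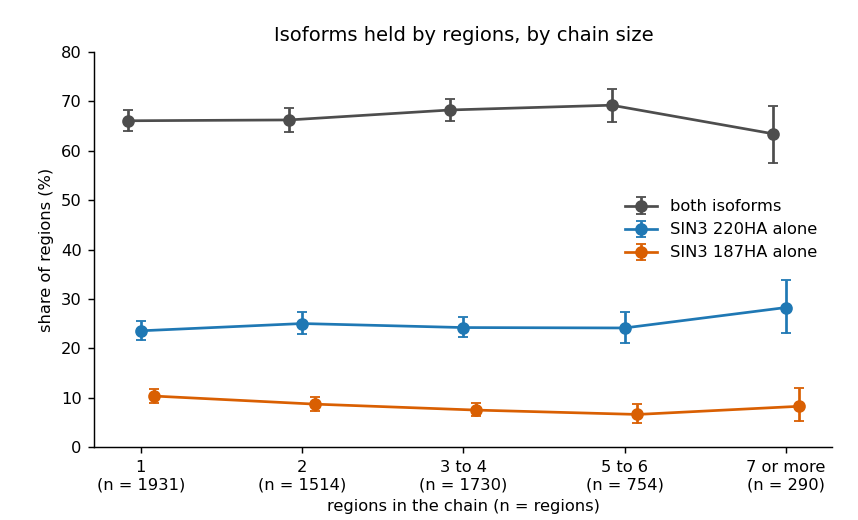
Share of regions (%) holding both isoforms, SIN3 220HA alone or SIN3 187HA alone, by the number of regions in the chain; bars are 95% exact binomial intervals and n is the number of regions. The shares with both isoforms stay between 63.4% and 69.2%, and the share with SIN3 187HA alone goes from 10.4% in lone regions to 6.63% in clusters of 5 to 6.

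Within a cluster, regions with 1 isoform and with both were mixed. In 29 clusters every region held both isoforms, in 43 a single region did not, and in 104 at least 2 regions held 1 isoform alone. A region with SIN3 220HA alone occurred in 133 clusters, a region with SIN3 187HA alone in 49, and 35 clusters had regions of each kind. Only 1 cluster had no region with both. Position within the cluster made no difference beyond counting error, since both isoforms were held by 69.9% of the 352 end regions (64.8% to 74.6%) and by 66.5% of the 692 interior regions (62.8% to 70.0%). The neighbour of a SIN3 220HA-only region in a cluster was also SIN3 220HA-only in 28.4% of 444 cases, and that of a SIN3 187HA-only region was also SIN3 187HA-only in 27.0% of 126. These shares are close to the overall share for SIN3 220HA and above it for SIN3 187HA. In chains of 2 to 4 regions they were 35.0% and 29.5%, and across gaps over 20000 bp 22.3% and 16.8%.

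A region with 1 isoform alone in the filtered lists was often not free of the other. Of the 338 such regions in clusters 251, or 74.3% (69.3% to 78.8%), met a peak of the other isoform that had been called but then filtered out, beside 73.7% of such regions over the series. For SIN3 220HA-only cluster regions 197 of 264 met a SIN3 187HA peak of the unfiltered list, with a median enrichment of 3.05-fold, and for SIN3 187HA-only cluster regions 54 of 74 met a SIN3 220HA peak, with a median of 2.72-fold. When the filtered-out peak had to cover at least 50% of the region, the share in clusters fell to 48.2%, beside 53.1% outside. The median of 3.05-fold lay just above the authors' 3-fold threshold, so many of these SIN3 187HA peaks were enriched enough and did not pass the authors' other filter, which compares replicates. The SIN3 220HA median of 2.72-fold lay below the threshold.

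Binding in clusters was about as strong as elsewhere. The fold enrichment over input had a median of 6.17 for SIN3 187HA in clusters (5.93 to 6.35) and 6.04 outside (5.96 to 6.15), and of 6.10 for SIN3 220HA in clusters (5.89 to 6.42) and 6.31 outside (6.20 to 6.44). Local background was slightly higher in clusters, at a median of 20.8 against 19.6 reads for SIN3 187HA and 31.4 against 29.0 for SIN3 220HA, with intervals that did not overlap in either list, and regions were slightly wider, at a median of 921 bp (885 to 961) against 871 bp (855 to 891), with intervals that just met. The part of the higher background in the fold values was not tested. In regions with both isoforms, the summits of the 2 lists lay a median of 19 bp apart in clusters and 20 bp outside. Regions with both isoforms were more enriched than those with 1, with a cluster median of 7.22-fold against 4.47-fold for SIN3 220HA and 6.43-fold against 4.34-fold for SIN3 187HA. This difference is in part built in, since a region holds both only where each list passed a filter that uses fold enrichment. Neighbouring regions of a cluster were hardly alike in enrichment. Spearman's rho between neighbouring regions in clusters was 0.07 for SIN3 187HA (487 pairs) and 0.09 for SIN3 220HA (759 pairs), although within a region the 2 isoforms had a rho of 0.62 (706 regions, which share the DNA sequence and the peak caller).

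Because the joined lists fixed the clusters, the rule was next applied to each list alone and the other list was counted over the resulting spans. The SIN3 187HA list alone gave 85 clusters, in which SIN3 220HA peaks, which had no part in choosing them, reached 370 per Mb, against 44.2 per Mb outside, a ratio of 8.38 (7.58 to 9.23). The SIN3 220HA list alone gave 157 clusters, with 308 SIN3 187HA peaks per Mb inside and 35.0 outside, a ratio of 8.80 (8.11 to 9.54). Of the 85 clusters 60 (70.6%) overlapped a cluster of the other list, and of the 157 clusters 59 (37.6%) did. Most of these peaks lay at the same sites, since all but 22 of the 438 SIN3 220HA peaks inside and all but 12 of the 686 SIN3 187HA peaks inside met a filtered peak of the other list. For the peaks that met none, counted over the length that the other list left uncovered, the densities inside and outside differed less, by a ratio of 2.60 for SIN3 220HA (1.62 to 3.94) and 2.14 for SIN3 187HA (1.10 to 3.77). Regions held both isoforms about as often outside clusters, so the ratios over all peaks were in large part fixed by the choice of spans. Of the 176 joint clusters 57 held a cluster of each list alone, 87 of SIN3 220HA only and 16 of SIN3 187HA only, and 16 reached 5 regions only when the lists were joined.

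**Figure D3:**
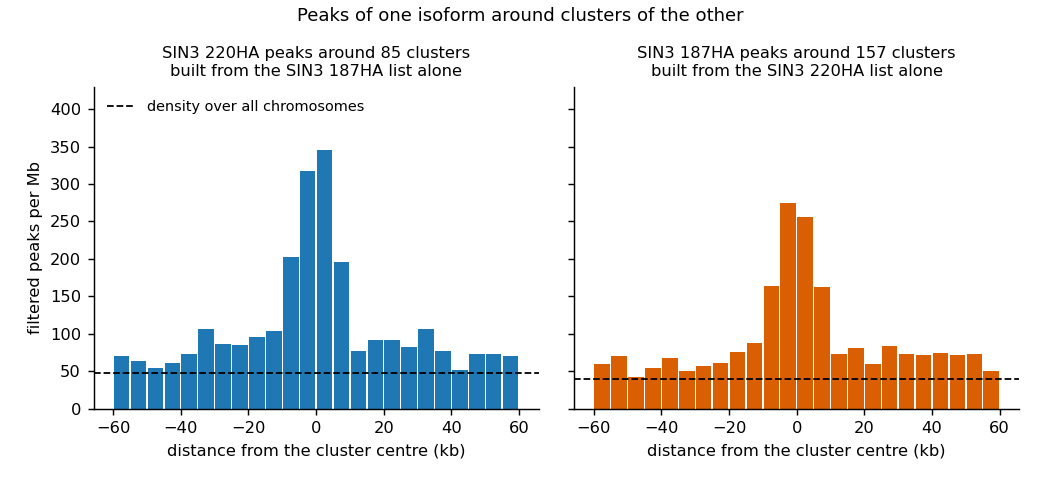
Filtered peaks of one isoform per Mb in 5 kb bins against the distance (kb) from the centre of clusters built from the other isoform's list alone; the dashed line is the density over all chromosomes (47.3 per Mb for SIN3 220HA on the left, 39.9 for SIN3 187HA on the right). The bin just left of the centre holds 318 SIN3 220HA peaks per Mb on the left and 275 SIN3 187HA peaks per Mb on the right, and most bins beyond 20 kb lie above the dashed line by a smaller amount.

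The gaps of clusters also held filtered-out peaks. A filtered-out peak of either isoform had its centre in 24.3% of the 868 gaps in clusters (21.5% to 27.3%) and in 21.2% of the 1966 gaps in smaller chains (19.4% to 23.1%), which have the same length limit. Per length this was 236 per Mb in cluster gaps and 194 per Mb in the gaps of smaller chains. Over the chromosomes there were 58.3 per Mb. That value is not a like measure, since it counts all filtered-out peaks over the whole length, also those on regions.

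Clusters occurred on all the large arms, with 34 on 2L, 32 on 2R, 41 on 3L, 40 on 3R and 29 on X, and none among the 28 regions of 4. They took from 14.8% of the regions on 2R (12.9% to 16.9%) to 18.6% on 3L (16.6% to 20.8%), so the arms did not separate. Arm X stood lower in the isoforms held, with both in 56.9% of its 174 cluster regions (49.2% to 64.4%), whereas the other arms had between 67.6% and 71.2%. Its interval met those of all 4 other arms, though on 2L (64.4% to 77.4%) and 3R (64.2% to 76.1%) only at the edge. Outside clusters X was also lowest of these arms, at 58.8% (55.4% to 62.2%). There its interval lay below those of all 4 other arms, of which the lowest began at 64.6% on 3L. The lower share on X was thus not particular to clusters.

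The cluster with most regions and the longest span was 3R:12047096-12082414 (dm3), with 14 regions over 35319 bp. Both isoforms were held by 8 of them, SIN3 220HA alone by 5 and SIN3 187HA alone by 1. The strongest was the region at 3R:12055678-12057858, enriched 20.6-fold for SIN3 187HA and 33.2-fold for SIN3 220HA, with a SIN3 220HA pileup of 1236 reads over a background of 36.3. The weakest SIN3 220HA value of the cluster, 3.06-fold, was in its first region, at the edge of the filter, where SIN3 187HA stood at 6.96-fold. The next cluster, X:12627535-12657928, had 12 regions, of which 9 held both isoforms. It contained a region of 5462 bp, the widest of this cluster, where SIN3 187HA was enriched 19.997-fold and SIN3 220HA 10.98-fold. Its 2 regions with SIN3 187HA alone were at 3.86-fold and 3.57-fold, far below its strong regions.

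The cluster 3R:7035179-7063784 had 11 regions, 8 with both isoforms and 3 with SIN3 220HA alone, and its SIN3 220HA enrichment ran from 3.19-fold to 15.8-fold. The cluster 2R:7479710-7506866 had 10 regions, 8 with both, and a median background of 54.1 reads in the SIN3 187HA list, above the 20.8 over cluster regions. Among the clusters of 9 regions, 3L:9350461-9377342 was the largest with both isoforms in every region, at 4.56-fold to 12.3-fold for SIN3 187HA and 4.0-fold to 12.9-fold for SIN3 220HA. The others were 3R:3930717-3953610, with 5 regions with both and 2 of each isoform alone, X:13628793-13651453, with 5 with both and 4 with SIN3 220HA alone, and 3L:539172-561355, with 4 with both and 5 with SIN3 220HA alone, 3 of them in a row at its end. The shape of the large clusters therefore differed from row to row, from uniform sharing to alternation.

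**Figure D4:**
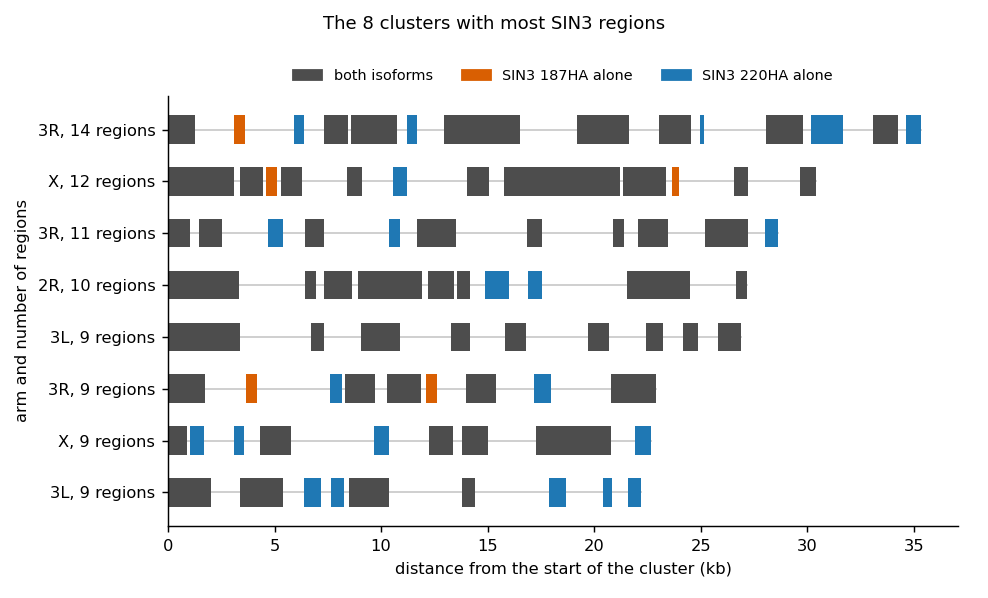
The 8 clusters with most regions, drawn to scale from the start of each cluster (kb). Boxes are regions, dark grey where both isoforms had a filtered peak, orange for SIN3 187HA alone and blue for SIN3 220HA alone; thin lines are gaps of at most 4000 bp. The cluster on 3L with 9 regions in the fifth line is dark grey throughout, and the one with 14 regions spans 35.3 kb.

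Other clusters stood at the ends of the range. The most compact was 3L:4117909-4123167, with 5 regions in 5259 bp, 3 with both isoforms and 2 with SIN3 187HA alone. The highest median enrichment in both lists, over clusters with at least 3 peaks of the list, was at 2R:4050634-4063951, at 11.9-fold for SIN3 187HA and 13.4-fold for SIN3 220HA. The cluster 3L:9412675-9423984 had 6 of its 8 regions with SIN3 220HA alone, at 3.29-fold to 9.22-fold, and X:19040257-19061535 had 4 of its 8 with SIN3 187HA alone, at 3.09-fold to 7.84-fold. Other clusters had as many, since 6 regions with SIN3 220HA alone were also found at 2L:5021657-5030857 (6 regions) and X:12789444-12804303 (7 regions), and 4 with SIN3 187HA alone at 2L:12520807-12534898 (7 regions). In X:19040257-19061535, 3 of the 4 SIN3 187HA-only regions stood side by side at its right end and the fourth was its left end, so that the 4 regions with both isoforms lay between them. The left-end region met a filtered-out SIN3 220HA peak of 3.37-fold, and the 3 at the right end met none. In 3L:9412675-9423984 all SIN3 220HA-only regions but that at 3.74-fold met a filtered-out SIN3 187HA peak, at 1.87-fold to 3.49-fold.

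Gene positions on the dm3 build were at hand for the first part of arm 2L, and the clusters below position 10000000 were read against them. That stretch held 19 clusters with 110 regions, out of 566 regions in all, and 1222 named genes. Cluster spans were rich in genes, with 115 genes starting in them, or 4.15 per 10 kb, against 1.14 per 10 kb in the rest of the stretch, a ratio of 3.64 (2.98 to 4.41). Of these 115 genes 109 (94.8%) started inside a SIN3 region, whereas 428 of the 1107 other genes (38.7%) did. Regions make up about as much of a cluster as the space between them, and a cluster begins and ends with a region, which by itself raises the first share. The ratio of 3.64 is also raised by the choice of clusters. They were picked as dense rows of regions, and 70.7% of the regions of the stretch held a gene start.

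Seen from the regions, a gene start was held by 70 of the 110 cluster regions, 63.6% (53.9% to 72.6%), beside 70.7% of all regions of the stretch and 72.4% of those outside clusters (68.0% to 76.4%). Starts on both strands, as at genes transcribed away from each other, were held by 30.9% of cluster regions (22.4% to 40.4%) and 24.1% of the others (20.3% to 28.3%). Regions that held no start and lay outside every listed transcript made up 17.3% of cluster regions (10.7% to 25.7%) and 6.14% of the others (4.12% to 8.75%). Of these 19 cluster regions 15 lay in 3 clusters, with 7 in the cluster that starts at 2L:478599 and 4 each in those that start at 2L:2192189 and 2L:5290154, the last 2 named after their values were seen. In the other 16 clusters, a split made after the data were seen, 4 of 92 regions were of this kind, or 4.35%. Cluster regions on this stretch were also wider, with a median of 1051 bp against 810 bp. A gene start was held by 55 of the 77 cluster regions with both isoforms (71.4%), by 14 of the 27 with SIN3 220HA alone (51.9%) and by 1 of the 6 with SIN3 187HA alone. Outside clusters these shares were 84.5%, 61.9% and 25%. Cluster regions with a start were enriched 7.30-fold for SIN3 220HA at the median and those without 4.94-fold, while for SIN3 187HA the medians were 6.28-fold and 5.74-fold, the latter over 27 regions. Outside clusters the medians with and without a start were 7.26-fold and 5.04-fold for SIN3 220HA, and 6.37-fold and 4.91-fold for SIN3 187HA.

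The 19 clusters were of unlike kinds. In 10 of them at least 4 of every 5 regions held a gene start, and in 7 fewer than 1 region in 2 did. This split was made after the values were seen and gets no test. The 12 clusters with starts in at least 1 region in 2 held 100 genes, or 5.33 per 10 kb, and both isoforms in 56 of their 68 regions (82.4%). The 7 others held 15 genes, or 1.67 per 10 kb, and both isoforms in 21 of 42 regions (50%). This share rests much on 2 of the 7, picked out after the values were seen. Both isoforms were held by 0 of 6 regions at 2L:5021657-5030857 and by 1 of 5 at 2L:5290154-5300013. In each of the other clusters without many starts most regions held both. Both isoforms were held by 78.6% of cluster regions with a start and by 55% of those without. Outside clusters they were held by 77.6% and 37.3%. The split by starts therefore sets the shares of 82.4% and 50% apart in part by construction. All 6 of the SIN3 187HA-only cluster regions of the stretch were among the 42 regions of the 7 clusters with starts in fewer than 1 region in 2. Of these 6, 3 lay at 2L:5290154-5300013. Over the series 8.62% of regions held SIN3 187HA alone. Outside clusters only 25% of such regions on the stretch held a start, so a split by starts gathers them in part by construction. Median enrichment was 5.21-fold in these 7 and 7.22-fold in the 12 for SIN3 220HA, and 6.16-fold and 6.24-fold for SIN3 187HA. Outside clusters the SIN3 220HA median was also higher in regions with a start, at 7.26-fold against 5.04-fold. The SIN3 220HA difference between the 7 and the 12 is thus in part built in as well.

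**Figure D5:**
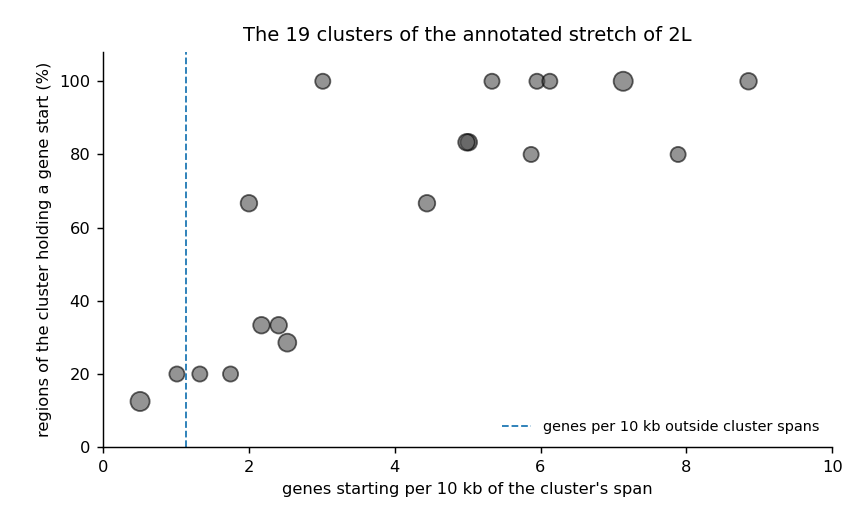
The 19 clusters of the annotated stretch of 2L, by genes starting per 10 kb of the cluster and the share of its regions that hold a gene start (%); larger circles have more regions (5 to 8), and the dashed line is the 1.14 genes per 10 kb outside clusters. Both axes count gene starts, so they rise together in part by construction; 7 clusters lie below 50% and 10 at 80% or above.

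The cluster 2L:4965402-4982223 was a row of promoters, and each of its 8 regions held a gene start. In order the regions held the starts of CG34125, of eIF3i (a translation initiation factor subunit), of Polr1C (an RNA polymerase subunit) with Scox (a factor for assembly of cytochrome c oxidase), of CG14043 with another gene, of mRpL28 (a mitochondrial ribosomal protein), of Gmd (an enzyme of GDP-fucose synthesis) with CG3792, of CG8891, and of CG34126 with CG8892. SIN3 220HA was enriched in all 8, by 4.83-fold at CG34125, 11.3-fold at eIF3i, 7.18-fold at Polr1C and Scox, 5.85-fold at CG14043, 9.64-fold at mRpL28, 6.11-fold at Gmd, 10.5-fold at CG8891 and 7.30-fold at CG8892. Filtered SIN3 187HA peaks lay in 6 of the regions, at 5.31-fold to 8.02-fold. In the CG34125 region and the region of Polr1C and Scox, SIN3 187HA peaks of 2.83-fold and 4.44-fold had been called and did not pass the filters. All 12 genes that started in these 16822 bp started inside a SIN3 region.

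The clusters at 2L:6956015-6971964 and 2L:8361697-8385769 were of the same kind. The former held starts in 5 of 6 regions, among them those of CG13775 with CG3430, Atac1 (a subunit of the ATAC histone acetyltransferase complex), sip2 with Coprox (an enzyme of haem synthesis), Sumo (the ubiquitin-like modifier) and snRNP-U1-70K (a splicing factor). At snRNP-U1-70K the enrichment was 6.02-fold for SIN3 187HA and 14.02-fold for SIN3 220HA. The region of CG13775 and CG3430 had SIN3 220HA alone in the filtered lists, at 11.4-fold. A SIN3 187HA peak of 4.08-fold had been called there and did not pass the filters. The latter cluster held starts in 5 of 6 regions, with RpS13 (a ribosomal protein), CSN8 (a COP9 signalosome subunit) and Pp2A-29B (the scaffold subunit of a protein phosphatase) in 1 region, CG17292 and Wdr82 (a subunit of the Set1 histone methyltransferase complex) in the next 2, CG13390 and CG17294 in the fifth, and AlaRS (alanyl-tRNA synthetase), Dad1 (an oligosaccharyltransferase subunit), Rcd4, CG13384 and CG13392 in the last, 4514 bp wide. SIN3 220HA was enriched 18.9-fold in the last region and SIN3 187HA 7.07-fold. The regions of CG17292 and Wdr82 held SIN3 220HA alone, at 4.10-fold and 3.13-fold. A filtered-out SIN3 187HA peak of 2.84-fold met the CG17292 region, and none met the Wdr82 region.

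The remaining pair of named clusters looked different. In 2L:154855-174633 the starts were all at the left end. The first region held Pus10 (a pseudouridine synthase), ND-15 (a subunit of respiratory complex I) and CG3436, and the second CG33635 and spen (an RNA-binding regulator of transcription and signalling). The other 5 regions held no start and lay within spen, a long gene, up to 12.3-fold for SIN3 220HA and 11.7-fold for SIN3 187HA in the fourth, and falling to SIN3 187HA alone at 3.42-fold and SIN3 220HA alone at 4.72-fold in the sixth and the seventh. In 2L:478599-498247 only the first of 8 regions held a start, that of cbt (cabut, a zinc-finger transcription factor). The other 7 lay outside every listed transcript, and the fifth region of the cluster was the strongest for SIN3 220HA, at 14.4-fold, whereas the cbt region stood at 7.51-fold. The second region of the cluster was enriched 11.1-fold for SIN3 187HA but 3.67-fold for SIN3 220HA.

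The 1 cluster of all 176 with no region holding both isoforms also lay on this stretch, at 2L:5021657-5030857, and is named here after its values were seen. Each of its 6 regions held SIN3 220HA alone, at 3.98-fold to 5.21-fold. The fourth held the start of vkg and the fifth that of Col4a1, the neighbouring genes of type IV collagen, the main collagen of basement membranes, and the other 4 lay within these genes. A filtered-out SIN3 187HA peak met 4 of the 6 regions, at 4.46-fold, 2.54-fold, 2.93-fold and 3.14-fold, so SIN3 187HA peaks had been called at these 4 regions and did not pass the filters.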

How the data were processed

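Reads of the 4 HA immunoprecipitates and 4 inputs were aligned by the authors to dm3 with Bowtie2, and peaks were called with MACS2 2.1.0 on joined replicates, with duplicate reads kept. CASAVA 1.8.2 is also named in the submitters' processing notes. The deposited unfiltered lists (9011 and 8862 peaks) give a score, the ratio (fold enrichment over local input), and the −log10 p-value and q-value of each peak. The deposited filtered lists give positions of peaks past an irreproducible discovery rate filter, which compares replicates, and at least 3-fold enriched. Keeping duplicates lets amplified fragments raise pileups, and joining replicates leaves no replicate spread.

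Filtered peaks were matched to unfiltered ones by position, merged and chained in Python 3.11.15 (pandas 2.3.3, numpy 2.4.6, scipy 1.17.1). Where a region held several peaks of a list, the value is that of the peak of highest fold enrichment. Pileup and background were recovered from fold enrichment and p-value by the MACS2 formulas and were whole within 0.05 for 9008 and 8860 peaks. For 1 SIN3 187HA peak no solution was found. Random placement was a formula, not a simulation. On simulated peaks, 138 of 138 planted clusters were recovered and 0 others were called. They were planted to meet the rule on an otherwise empty chromosome, so this checks the code alone.

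Gene starts came from dm3 transcript positions in a gene table of the study's supplement, used only below position 10000000 on 2L because the table was held in part. Of 1929 transcripts 1817 were given symbols by accession through RefSeq. No DNA sequence of this build was used.

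Clusters were named by a rule: the 8 with most regions, the longest, the shortest, the highest median fold enrichment and background in each list, the most regions with 1 isoform alone (ties by more regions), and the longest per arm. Genes were named for the 5 clusters with most regions on the 2L stretch, and exceptions are marked. 1 gene that the rule would name is not reported here. The clusters, the rule and the lists were chosen with earlier results of these data known. The alternatives tried were other gaps, cluster sizes, fold thresholds, list lengths and merging rules. All positions count from 1.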

Additional observations from a re-analysis of the deposited data

How the results depend on the processing

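No paired analysis was possible because peaks had been called once per isoform on both replicates together, and leaving out each replicate in turn could not be run for the same reason. Of 88 values under an alternative setting, 57 stayed within the interval of the reported value (counts, within 1.5 times) and 31 did not. The count of clusters depended most on the rule. It was 93 with gaps of at most 3000 bp (541 regions, 8.70% of regions), 90 with 6 or more regions (614 regions, 9.87%), 343 with 4 or more (1712 regions, 27.5%), 46 from peaks of at least 5-fold (255 regions, 5.80%) and 564 from the unfiltered lists (3947 regions, 39.0%). With gaps of at most 5000 bp the share of regions in clusters was 23.5%, and with lists of equal length it was 13.1%. The share of cluster regions holding both isoforms was 64.7% with 6 or more regions and 72.5% with lists of equal length, which also put the other regions at 69.2%. From peaks of at least 5-fold the other regions held both in 61.8%. Median fold enrichment in clusters followed the threshold by construction, at 7.48 for SIN3 187HA and 8.39 for SIN3 220HA from peaks of at least 5-fold, 4.12 and 4.39 from the unfiltered lists, and 6.85 for SIN3 220HA in lists of equal length. The density ratio of the other isoform, which counts shared sites too, stayed above 7 throughout. It was 10.2 for SIN3 220HA over SIN3 187HA clusters and 9.65 for SIN3 187HA over SIN3 220HA clusters from peaks of at least 5-fold, and the latter was 9.71 with 4 or more regions and 8.06 with 6 or more. The share of single-isoform cluster regions meeting a filtered-out peak was 48.2% when 50% of the region had to be covered. Merging over 100 bp, merging at 50% overlap and leaving out all but the 5 large arms moved no value. No depth per replicate was used here. The SIN3 220HA list had the higher pileups and also the higher background, and the part of either in the single-isoform regions was not tested.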

Other observations

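Clusters were mostly far from each other. Of the 171 pairs of consecutive clusters on an arm 5 lay within 10 kb, and the closest pair was 4234 bp apart, at the left end of X:12627535-12657928, the cluster with 12 regions.

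A pair of clusters stood apart in local background. At 3R:17474774-17488988, with 5 regions over 14215 bp, the median SIN3 187HA background was 574 reads, beside 20.8 over cluster regions, and the SIN3 187HA pileup reached 7803 reads at 3R:17485233-17487442, where SIN3 220HA stood at 891 reads over a background of 45.6. Enrichment in that region was 17.8-fold for SIN3 187HA and 19.2-fold for SIN3 220HA, so the fold values alone do not show the difference in background. At 2R:1640690-1648699 the median SIN3 220HA background was 124 reads, beside 31.4 over cluster regions, and that of SIN3 187HA 74.3. The part of background in the choice of these clusters was not tested.

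The balance of the isoforms, taken as the percentile of SIN3 220HA enrichment minus that of SIN3 187HA within their lists, had a Spearman's rho of 0.19 between neighbouring regions of clusters that both held the 2 isoforms (405 pairs), of 0.09 in chains of 2 to 4 regions (942 pairs) and of 0.05 across gaps over 4000 up to 20000 bp (1001 pairs). Neighbours share libraries and local background, and the values are weak.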
